A study of Bos taurus with 12 samples.

Results

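The genes described here are matrix proteases, lysosomal and cytosolic proteases, and their inhibitors, measured in cultured bovine aortic endothelial cells under 4 kinds of flow. They were chosen by symbol alone: matrix metalloproteinases (MMP), tissue inhibitors of metalloproteinases (TIMP), ADAM and ADAMTS proteases, serpins, cathepsins, cystatins, calpains and HTRA proteases, together with PLAU, PLAUR, PLAT, FURIN and RECK. Of the 3977 genes that the array's annotation named, 36 met this rule. RECK was not analysed here. Each gene was read from 1 probe set, namely its brightest by average signal. The annotation used here names only probe sets of a deposited subset that is brighter than the rest of the array, so the 36 are the named members of their families and not all of them.

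Cells from bovine aorta, at passage 15, were grown to confluence on glass and then kept for 24 h in circulating medium thickened by dextran. Wall shear stress (WSS) is the drag of the flowing medium on the cell layer. The groups, of 3 arrays each, were a positive spatial gradient of WSS, a negative spatial gradient, a uniform high WSS of 28.4 Pa and a uniform baseline of 3.5 Pa. The labels give neither the local stress in the gradient chambers nor whether the arrays numbered 1 to 3 were separate cultures, so p-values measure only the spread between these samples. In every group a mixed response of all cells on the coverslip was measured, and fewer cells of a kind cannot be told apart from less RNA per cell.

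Endothelial cells remodel the matrix beneath them through secreted and membrane-bound proteases, most of which are made as inactive precursors. Plasminogen activators turn plasminogen into plasmin, plasmin and convertases such as furin activate further proteases, and TIMPs, serpins and cystatins hold metallo-, serine and cysteine proteases in check. Cathepsins work mainly in lysosomes and can be secreted, while calpains cleave cytoskeletal and adhesion proteins inside the cell. In vessels under altered flow this system is known for breaking down collagen, elastin and proteoglycans.

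All values are log2 signals, so a difference of 1 is a doubling. Array medians lay between 5.65 and 5.72. The 8 measured endothelial markers averaged 10.11 under both gradients, 9.94 at high stress and 9.68 at baseline, with PECAM1, a junctional adhesion molecule, at percentile 96.3 of the named genes. Of the 7 listed leukocyte markers 1 was measured, CD14, a monocyte receptor, and its arrays ranged from 4.18 to 5.52 under the positive gradient, from 4.47 to 7.12 under the negative gradient, from 3.98 to 6.09 at high stress and from 5.15 to 7.99 at baseline. The 2 measured smooth muscle markers averaged 7.39 for the positive gradient, 7.95 for the negative gradient, 7.07 for high stress and 7.24 for baseline. The 3 measured fibroblast markers averaged 8.92 for the positive gradient, 9.10 for the negative gradient, 9.12 for high stress and 9.54 for baseline. The 3′ minus 5′ difference of the EF1A control probe sets, a measure of how complete the labelled RNA copies are, was −1.77 ± 0.28 on positive gradient arrays, −1.98 ± 0.17 on negative gradient arrays, −1.42 ± 0.53 on high WSS arrays and −1.23 ± 0.19 on baseline arrays (SD, n = 3). The GAPDH controls gave means of 0.21, 0.11, 0.48 and 0.63 for these groups in the same order. The ACTB controls gave 1.05, 0.95, 1.15 and 1.31, with an SD of up to 0.51. High WSS replicate 3 had the lowest EF1A (−2.03) and GAPDH (0.089) differences of its group, both within the range of the gradient arrays. Its ACTB difference, 1.14, lay between those of the other high WSS arrays. High WSS replicate 3 stood apart from its group: it lay 0.20 (root mean square over all probe sets) from positive gradient replicate 3, its nearest array, and 0.44 from each of the other two high WSS arrays. Counts of called genes, and the differences between high stress and another group given for single protease genes, are therefore shown with all arrays and, for most, also without it. This array was set apart by its likeness to a gradient array, so leaving it out tends to favour calls between the gradients and high stress. Calls made only that way are not independent support for such a difference. The gradient and uniform arrays also carry separate runs of record numbers, and whether they were processed apart is not stated.

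The 36 genes spanned nearly the whole range of the named genes, from a mean over the arrays of 4.40 for MMP1 to 12.84 for HTRA1. Their median lay at percentile 66.8 of the named genes. MMP1 lay at percentile 33.0 of all probe sets, many of which are dimmer than the named ones. HTRA1, a secreted serine protease, CTSH, a lysosomal aminopeptidase, TIMP1, CAPN2 and TIMP2 lay at or above percentile 94.3. MMP1 and CTSL lay below 5.68, the median of all values.

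**Figure D1:**
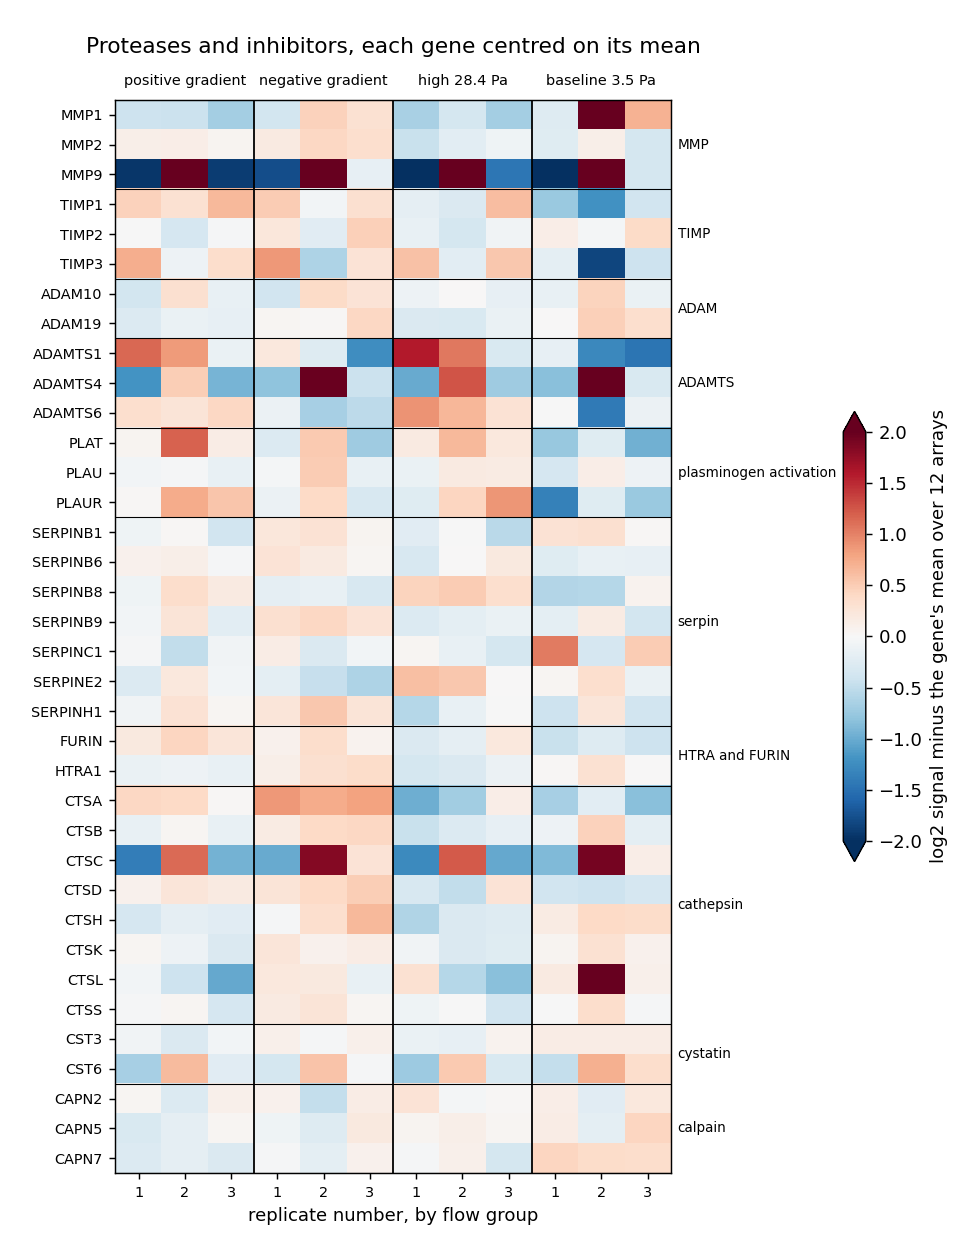
Log2 signal of each of the 36 genes (rows, by family) on each of the 12 arrays (columns, by flow group and replicate number), minus that gene's mean over the 12 arrays. The colour scale ends at 2 in both directions. MMP9, CTSC and ADAMTS4 are high in the second column of every group, while CTSA is above its mean on all gradient arrays and on high WSS replicate 3.

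Set against baseline, the positive gradient moved the inhibitor TIMP1, the urokinase receptor PLAUR and the convertase FURIN up and the calpain CAPN7 down. These 4 of 36 genes passed the test (an adjusted p under 0.05 over all 24016 probe sets), 3 higher and 1 lower. Among all named genes 13.9% passed, 6.08% higher and 7.77% lower, and among all probe sets 7.01%, so the share of the protease genes, 4 of 36, was near the background. Samples with the same replicate number deviated from their group means together in this comparison. With the number as a block 17 of the 36 passed, 9 higher and 8 lower, where 34.3% of named genes did (16.1% higher, 18.2% lower). The count without the block was 0 without positive gradient replicate 1, 2 or 3 or baseline replicate 3, 1 without baseline replicate 1 and 8 without high WSS replicate 3, whose spread enters the fit (24.6% of named genes): ADAMTS1, CTSA, CTSD, FURIN, PLAUR and TIMP1 higher, and CAPN7 and CTSH lower. With the block and without that array it was 19 (46.8% of named genes), an alternative chosen after seeing the data. For the other arrays left out, here and below, no share of named genes was computed. Counts given for them therefore cannot be set against the background. In what follows, values without the block rest on all 12 arrays unless an array is named as left out. The EF1A difference between transcript ends was lower under the positive gradient than at baseline, as given above, and the mean of the endothelial markers was higher. Among the markers TIE1 (1.24) and FLT1 (1.19), endothelial receptor kinases, rose, and THY1 (−1.05), a fibroblast surface protein, fell without the block. With the block 2 endothelial markers passed higher and 1 lower, ROBO4, a guidance receptor (8.92 against 9.38 at baseline). The block also called 1 smooth muscle marker higher, 2 fibroblast markers lower and CD14 lower (−1.77). The part of RNA quality and cell makeup in these changes was not tested.

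Under the negative gradient the lysosomal proteases CTSA and CTSD rose against baseline, and these were the 2 of 36 genes past the test (3.65% of named genes, of which 3.14% higher and 0.503% lower, and 1.67% of all probe sets). With the block 7 passed, all higher: CTSA, CTSD, TIMP1, TIMP3, FURIN, MMP2 and SERPINH1, where 11.9% of named genes passed, 8.32% higher and 3.55% lower. Without the block the count was 0 without negative gradient replicate 1, 2 or 3 or baseline replicate 1 or 3, and 1 without positive gradient replicate 1, 2 or 3 or baseline replicate 2. Background shares were not computed for these. It was 5 without high WSS replicate 3 (14.6% of named genes), namely CTSA, CTSD, FURIN and TIMP1 higher and CAPN7 lower, and 13 with the block and without that array (29.4% of named genes). The EF1A difference was lowest in this group, and TIE1 rose (1.18) without the block. With the block 3 endothelial markers and 1 smooth muscle marker passed higher and 1 fibroblast marker lower. The part of RNA quality and cell makeup was not tested.

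At high uniform stress 0 of 36 genes passed against baseline by limma, against 1.18% of named genes and 0.408% of all probe sets. At an unadjusted p under 0.05 there were 15 of 36, and 1066 of 3977 named genes. The block brought 12 past the test, 7 higher and 5 lower, where 14.6% of named genes passed (6.79% higher and 7.77% lower). Higher were ADAMTS1, ADAMTS6, PLAUR, TIMP3, PLAT, TIMP1 and SERPINB8, and lower MMP1, CTSC, CTSH, ADAM19 and SERPINB1. Without high WSS replicate 3 the count was 0 without the block (0.126% of named genes) and 7 with it (7.09%), ADAMTS1, ADAMTS6, PLAT, PLAUR, SERPINB8 and TIMP3 higher and CTSH lower. Without baseline replicate 3 and with no block it was 1, SERPINB8. Markers moved in the block fit too: the leukocyte marker CD14 (−1.53) and the endothelial guidance receptor ROBO4 (−0.58) were lower and FLT1 (1.36) higher at high stress, and none of the smooth muscle or fibroblast markers passed. Their part was not tested. The 3 comparisons share the baseline arrays, so a gene that is low or high there moves in all of them.

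**Figure D2:**
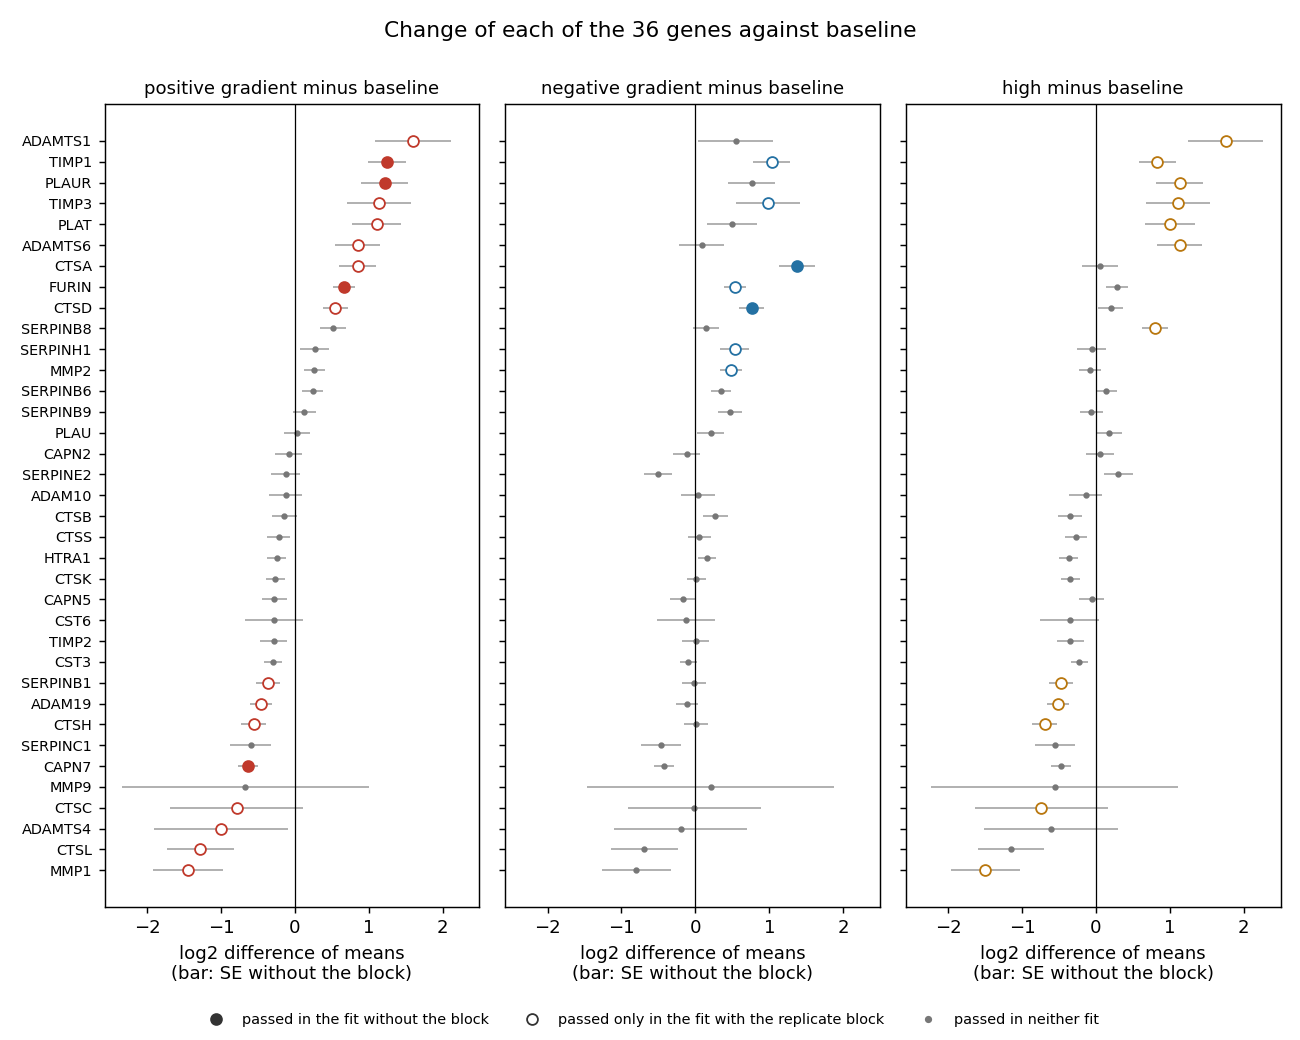
Log2 difference of group means from baseline for each of the 36 genes under the positive gradient, the negative gradient and high WSS, with the standard error of the fit without a block, in the order of the positive gradient. Filled points passed without the block (4, 2 and 0 genes), open points with it but not without it (13, 5 and 12), and small grey points in neither fit.

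No gene of the 36 passed between the 2 gradients by limma (0% of named genes and of all probe sets called), nor with the block, where 0.0754% of named genes were called. Without the block, 6 of 36 had an unadjusted p under 0.05, and 457 of 3977 named genes did. With the block and without high WSS replicate 3, 1 gene passed, ADAMTS1 (1.05, adjusted p = 0.0433, 0.578% of named genes). Values were lower under the positive than the negative gradient for 26 of 36 genes, with a median of −0.21, beside −0.011 over all named genes. The smallest p belonged to CTSH (difference −0.57, 95% interval −0.93 to −0.21, adjusted p = 0.719, and 0.119 with the block), lower in each same-numbered pair. Next came HTRA1 at −0.40 (−0.67 to −0.13) and ADAMTS6, at 0.77 (0.11 to 1.42). The median standard error of the 36 differences was 0.18.

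The positive gradient and high stress also gave 0 calls among the 36 (0% of named genes and of all probe sets), with or without the block. Without it, 4 of 36 had an unadjusted p under 0.05, and 268 of 3977 named genes did. Without high WSS replicate 3, CTSA (1.11, adjusted p = 0.0308) and CTSD (0.57, adjusted p = 0.0469) were higher under the positive gradient, and 2.49% of named genes passed. With the block as well, 5 passed, CTSA, CTSD, FURIN, SERPINH1 and TIMP1, all higher (11.4% of named genes). Between the negative gradient and high stress 0 of 36 passed, where 0.302% of named genes and 0.0958% of all probe sets did. At an unadjusted p under 0.05 there were 15 of 36, and 1014 of 3977 named genes. Here 7 passed without high WSS replicate 3 (12.6% of named genes). Higher under the negative gradient were CTSA (1.64), CTSD (0.79), CTSH (0.76), CTSB (0.69), HTRA1 (0.59) and MMP2 (0.64), and lower was SERPINE2 (−0.995). Calls of either gradient against high stress appeared only after the high WSS array most like a gradient array was left out, a choice that favours them. The part of RNA quality and cell makeup in these differences was not tested. A test for any difference among the 4 groups called CTSA alone (adjusted p = 0.0353), where 4.17% of named genes and 1.59% of all probe sets were called. That count was 11 without high WSS replicate 3 (20.9% of named genes) and 0 without any 1 of positive gradient replicates 1 to 3, negative gradient replicates 2 and 3, high WSS replicates 1 and 2, or baseline replicates 1 and 3.

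The 3 measured MMPs ranged from dim to bright. MMP2, gelatinase A, which cleaves basement membrane collagen, measured 10.43, 10.45 and 10.39 on positive gradient arrays and 10.51, 10.74 and 10.67 on negative gradient arrays. It measured 9.88, 10.11 and 10.24 at high stress, against 10.07, 10.43 and 9.96 at baseline. All negative gradient arrays lay above all high WSS and baseline arrays. MMP2 was higher by 0.48 (SE 0.14) under the negative gradient than at baseline, which passed with the block and not without it (adjusted p = 0.0493, and 0.0878 without it).

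MMP1, the collagenase that opens fibrillar collagen, was dim on all arrays but baseline replicate 2. Its values were 3.98, 3.97 and 3.73 on positive gradient arrays and 4.04, 4.87 and 4.71 on negative gradient arrays. At high stress they were 3.75, 4.05 and 3.72, against 4.14, 6.78 and 5.09 at baseline. Baseline replicate 2 stood above the rest, and baseline replicate 1 lay within the range of the other groups. Differences from baseline were −1.45 (SE 0.47) for the positive gradient and −1.50 for high stress. They passed with the block and not without it (adjusted p = 0.0244 and 0.0383, against 0.0753 and 0.162 without it), and without baseline replicate 2 they came to −0.72 and −0.77. Without baseline replicate 1 the positive gradient passed with no block (−2.05, adjusted p = 0.0441). The high stress difference was −1.44 without high WSS replicate 3.

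Among the metalloproteinase inhibitors TIMP1 rose under the positive gradient, and TIMP3 passed there with the block. TIMP1, the secreted inhibitor of most MMPs, measured 12.26, 12.09 and 12.43 on positive gradient arrays and 12.29, 11.73 and 12.11 on negative gradient arrays. At high stress it measured 11.61, 11.51 and 12.41, against 11.05, 10.58 and 11.41 at baseline. Every array of the 3 other groups exceeded every baseline array, and high WSS replicate 3, at the level of the positive gradient, exceeded its fellows. TIMP1 rose 2.38-fold under the positive gradient over baseline (log2 1.25, SE 0.25, adjusted p = 0.0214, and 0.00329 with the block). Under the negative gradient it was higher by 1.03 (adjusted p = 0.0573, and 0.0252 with the block) and at high stress by 0.83 (0.152, and 0.0149 with the block). Without high WSS replicate 3 the negative gradient passed with no block (0.014), and the high stress difference was 0.55 (0.39). A second TIMP1 probe set gave 1.16, 0.83 and 0.87 for the differences under the positive gradient, the negative gradient and high stress.

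TIMP3, an inhibitor that binds to the matrix and also blocks ADAM and ADAMTS proteases, varied with the replicate number as well as with flow. It measured 10.45, 9.62 and 10.07 on positive gradient arrays and 10.58, 9.10 and 9.98 on negative gradient arrays. The high WSS arrays read 10.30, 9.51 and 10.25, against 9.53, 7.88 and 9.31 at baseline. In each group the array numbered 2 was the lowest, and baseline was the lowest group within each number. Differences from baseline were 0.92, 1.74 and 0.76 in the pairs numbered 1, 2 and 3 under the positive gradient (mean 1.14, adjusted p = 0.00526 with the block and 0.113 without it). The negative gradient stood 0.98 above baseline (0.0252 with the block, 0.199 without) and high stress 1.11 (0.00591 with, 0.245 without). With no block, leaving out baseline replicate 2, the lowest array, took these differences to 0.63 for the positive gradient, 0.47 for the negative gradient and 0.60 for high stress. Without negative gradient replicate 1 the negative gradient difference was 0.64, and without high WSS replicate 3 that of high stress was 1.00.

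TIMP2, which inhibits MMPs and takes part in activating MMP2 at the cell surface, was bright and varied little. It measured 11.58, 11.25 and 11.57 on positive gradient arrays and 11.82, 11.36 and 12.07 on negative gradient arrays. High WSS arrays read 11.44, 11.25 and 11.52, against 11.73, 11.55 and 11.97 at baseline. All high WSS arrays lay just below all baseline arrays, the other groups overlapped with baseline, and no comparison whose numbers pair passed with or without the block. Another bright probe set of TIMP2 differed from baseline by −0.38, −0.11 and −0.34 under the positive gradient, the negative gradient and high stress, near the chosen one, whereas a dim one gave 0.46, 0.97 and 0.13. The chosen one gave −0.28, 0.002 and −0.35, and −0.41 for high stress without replicate 3.

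**Figure D3:**
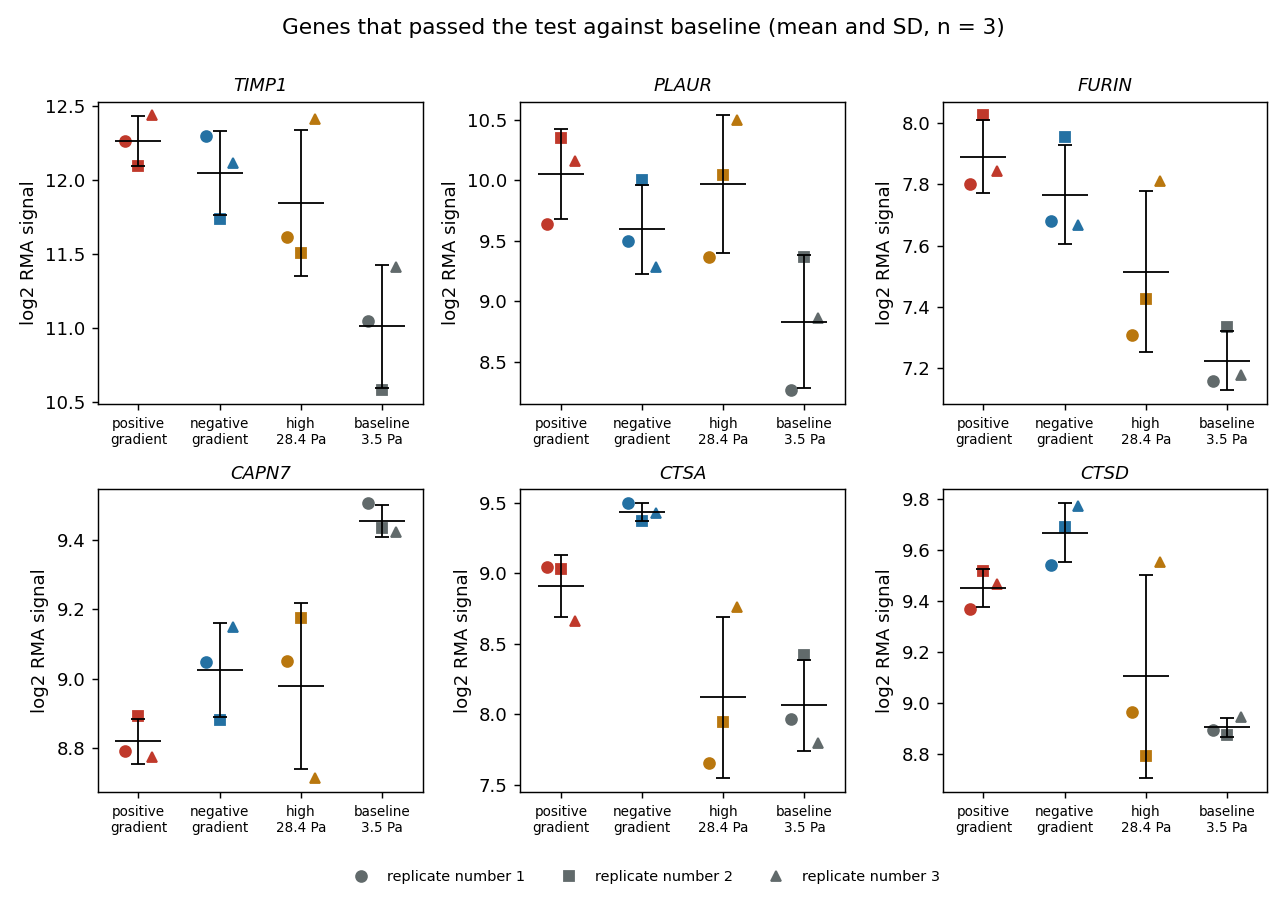
Log2 signal of TIMP1, PLAUR, FURIN, CAPN7, CTSA and CTSD, the 6 genes that passed a comparison with baseline without a block, on each array (circle, square and triangle for replicate numbers 1, 2 and 3), with mean and SD per group (n = 3). For CTSA and CTSD the gradient arrays lie above the baseline arrays, and high WSS replicate 3 lies with the gradient arrays.

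Of the 3 ADAMTS proteases, which are secreted and cleave matrix proteins such as proteoglycans, none passed without the block on all 12 arrays. ADAMTS1, which cleaves versican, measured 9.87, 9.58 and 8.60 on positive gradient arrays and 8.93, 8.47 and 7.48 on negative gradient arrays. High WSS arrays measured 10.32, 9.78 and 8.43, against 8.56, 7.43 and 7.26 at baseline. All positive gradient arrays lay above all baseline arrays, while the lowest high WSS array, replicate 3, lay below the highest baseline array. Within numbers the positive gradient exceeded baseline by 1.31, 2.14 and 1.34 and high stress by 1.76, 2.35 and 1.17. ADAMTS1 differed from baseline by 1.60 (SE 0.51) for the positive gradient and 1.76 for high stress, the largest differences among the 36 genes, and both passed with the block and not without it (adjusted p = 0.00329 and 0.00242, against 0.0723 and 0.137 without it). Without high WSS replicate 3 the positive gradient passed with no block (adjusted p = 0.0341), and high stress differed by 2.30 (0.127). The negative gradient differed by 0.54 (0.54, and 0.0897 with the block). A dimmer second probe set gave 1.27 for the positive gradient, 0.78 for the negative gradient and 1.28 for high stress.

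ADAMTS6, a less studied relative, read 7.41, 7.32 and 7.48 on positive gradient arrays and 6.96, 6.41 and 6.54 on negative gradient arrays. It read 7.97, 7.73 and 7.35 at high stress, against 7.06, 5.65 and 6.95 at baseline. All arrays of the positive gradient and high stress lay above all of the negative gradient and baseline. The differences from baseline, 0.85 for the positive gradient and 1.13 for high stress, passed with the block and not without it (adjusted p = 0.0395 and 0.024). Without it they were 0.0975 and 0.114, and the negative gradient differed from baseline by 0.084. With no block and without baseline replicate 2, the lowest array, the positive gradient differed by 0.40 and high stress by 0.68, and without high WSS replicate 3 the high stress difference was 1.30. ADAMTS6 was described for its block call, after its values were seen.

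The 2 ADAM proteases, which are anchored in the membrane, did not pass without the block on all 12 arrays. ADAM10, a sheddase of Notch and cadherins, measured 9.68, 10.36 and 9.90 on positive gradient arrays and 9.67, 10.43 and 10.32 on negative gradient arrays. It measured 9.95, 10.06 and 9.89 at high stress, against 9.90, 10.49 and 9.92 at baseline, and all groups overlapped. A dimmer ADAM10 probe set differed from baseline by −0.76 under the negative gradient where the chosen one gave 0.032, so the direction depends on the probe set. ADAM19 measured 6.11, 6.25 and 6.22 on positive gradient arrays and 6.43, 6.40 and 6.80 on negative gradient arrays. At high stress it measured 6.10, 6.08 and 6.25, against 6.39, 6.86 and 6.71 at baseline. All positive gradient and high WSS arrays lay below all baseline arrays, with differences of −0.46 and −0.51 that passed with the block and not without it (adjusted p = 0.0334 and 0.0431, against 0.0748 and 0.137 without it). The high stress difference was −0.57 without high WSS replicate 3.

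In the plasminogen activator system the receptor rose under the positive gradient, and the tissue-type activator passed there with the block. PLAUR, the receptor that holds urokinase at the cell surface, measured 9.64, 10.35 and 10.16 on positive gradient arrays and 9.50, 10.00 and 9.29 on negative gradient arrays. High WSS arrays measured 9.36, 10.04 and 10.49, against 8.27, 9.37 and 8.86 at baseline. The positive gradient arrays all exceeded the baseline arrays, and in the other groups one array overlapped with baseline. PLAUR rose 2.33-fold under the positive gradient (log2 1.22, SE 0.32, adjusted p = 0.0419, and 0.00662 with the block). At high stress it stood 1.14 above baseline (0.129, and 0.0113 with the block), or 0.87 without high WSS replicate 3. Under the negative gradient the difference was 0.76 (0.183, and 0.0526 with the block).

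PLAT, the tissue plasminogen activator that endothelium releases to dissolve fibrin, measured 8.94, 10.06 and 9.03 on positive gradient arrays and 8.61, 9.42 and 8.17 on negative gradient arrays. It measured 9.07, 9.55 and 9.10 at high stress, against 8.14, 8.65 and 7.94 at baseline. Arrays of the positive gradient and of high stress all exceeded the baseline arrays. The differences, 1.11 and 1.00, passed with the block and not without it (adjusted p = 0.0039 and 0.00519, against 0.0615 and 0.186 without it). With no block the positive gradient passed without negative gradient replicate 2 (adjusted p = 0.0479), and high stress differed by 1.07 without its replicate 3. PLAU, urokinase, measured 9.80, 9.84 and 9.71 on positive gradient arrays and 9.82, 10.36 and 9.71 on negative gradient arrays. It measured 9.73, 10.05 and 10.03 at high stress, against 9.52, 9.99 and 9.75 at baseline, with all groups overlapping. Its difference from baseline under the positive gradient was 0.029 (95% interval −0.36 to 0.41).

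Of the 7 serpins, which mostly trap serine proteases, none passed without the block on all 12 arrays. SERPINH1, the collagen chaperone HSP47, which belongs to the family by sequence and inhibits no protease, measured 11.25, 11.61 and 11.35 on positive gradient arrays and 11.56, 11.86 and 11.58 on negative gradient arrays. At high stress it measured 10.75, 11.17 and 11.31, against 10.90, 11.56 and 10.94 at baseline. All negative gradient arrays lay above all high WSS arrays, with means 0.59 apart, while the other groups overlapped. Without high WSS replicate 3 that difference was 0.71 (adjusted p = 0.0674 by limma with no block). Within each number the negative gradient exceeded baseline (mean 0.53, adjusted p = 0.0484 with the block and 0.141 without it).

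SERPINE2, protease nexin-1, an inhibitor of thrombin and plasminogen activators, followed another order. It measured 6.38, 6.85 and 6.59 on positive gradient arrays and 6.46, 6.18 and 6.03 on negative gradient arrays. The high WSS arrays measured 7.25, 7.18 and 6.66, against 6.69, 6.98 and 6.51 at baseline. All 3 negative gradient arrays lay below all baseline and all high WSS arrays, with differences of −0.51 (adjusted p = 0.15) and −0.81 (0.101), the second of which was −0.995 (0.0135) without high WSS replicate 3. SERPINB8, an intracellular serpin that inhibits furin in vitro, stood 0.80 above baseline at high stress (0.0207 with the block, 0.0687 without), at 7.77, 7.84 and 7.67 on high WSS arrays against 6.73, 6.75 and 7.39 on baseline arrays. The difference was 0.85 without high WSS replicate 3, and without baseline replicate 3 it passed with no block (1.02, adjusted p = 0.0402). The elastase inhibitor SERPINB1 differed from baseline by −0.36 for the positive gradient and −0.47 for high stress, past the test with the block and not without it (adjusted p = 0.0399 and 0.0268, against 0.166 and 0.192 without it). Its second probe set gave −0.024 and −0.20, and the high stress difference was −0.33 without high WSS replicate 3. Both were singled out after their values were seen. SERPINB6, SERPINB9, the granzyme B inhibitor, and SERPINC1, antithrombin, passed in no comparison whose numbers pair when all 12 arrays were used, with differences from baseline of −0.60 to 0.47.

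FURIN, the convertase that cuts many precursors including those of membrane-type MMPs, was lowest at baseline. It measured 7.80, 8.02 and 7.84 on positive gradient arrays and 7.68, 7.95 and 7.67 on negative gradient arrays. At high stress it measured 7.31, 7.43 and 7.81, against 7.16, 7.33 and 7.18 at baseline. The gradient arrays all exceeded the baseline arrays, and high WSS replicate 3 lay with them while its fellows did not. FURIN rose by 0.67 under the positive gradient (SE 0.15, adjusted p = 0.0283, and 0.0111 with the block), with 0.64, 0.69 and 0.66 in the 3 pairs. Under the negative gradient it was higher by 0.54 (0.0709, 0.0424 with the block, and 0.0228 with no block and without high WSS replicate 3).

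HTRA1, the brightest of the 36 genes and a secreted serine protease that cleaves matrix proteins, measured 12.70, 12.74 and 12.70 on positive gradient arrays and 12.97, 13.17 and 13.21 on negative gradient arrays. High WSS arrays read 12.48, 12.55 and 12.72, against 12.86, 13.15 and 12.86 at baseline. All arrays of the negative gradient and baseline exceeded all arrays of the positive gradient and high stress. The negative gradient exceeded high stress by 0.53 (SE 0.13, adjusted p = 0.101), or by 0.59 (0.0249) without high WSS replicate 3. Differences from baseline were −0.24, 0.16 and −0.37 under the positive gradient, the negative gradient and high stress (−0.44 for high stress without replicate 3), with none past the test on all 12 arrays.

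Of the 8 cathepsins 2 rose under the negative gradient. CTSA, a lysosomal carboxypeptidase that also protects other lysosomal enzymes, measured 9.05, 9.03 and 8.66 on positive gradient arrays and 9.50, 9.37 and 9.43 on negative gradient arrays. It measured 7.65, 7.94 and 8.76 at high stress, against 7.96, 8.42 and 7.80 at baseline. The negative gradient arrays were the 3 highest of the 12, and high WSS replicate 3 lay within the range of the positive gradient. CTSA rose 2.59-fold under the negative gradient over baseline (log2 1.37, SE 0.24, adjusted p = 0.0321, and 0.0252 with the block). Under the positive gradient it was higher by 0.85 (0.0532, and 0.0381 with the block). At high stress the difference was 0.056 (0.941), and it turned to −0.26 (0.637) without high WSS replicate 3. Without that array the positive gradient passed with no block (0.0114), as it did without high WSS replicate 1 (0.0401) or baseline replicate 2 (0.0457). The gradients differed from each other by −0.52 (95% interval −1.05 to 0.0056, adjusted p = 0.945).

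CTSD, the aspartic protease of lysosomes, measured 9.37, 9.52 and 9.47 on positive gradient arrays and 9.54, 9.69 and 9.77 on negative gradient arrays. At high stress it measured 8.97, 8.79 and 9.55, against 8.90, 8.88 and 8.95 at baseline. The gradient arrays all lay above baseline, high WSS replicate 3 did too, and the other high WSS arrays lay close to baseline. CTSD rose by 0.76 under the negative gradient (SE 0.17, adjusted p = 0.0449, and 0.028 with the block) and was higher by 0.55 under the positive gradient (0.0656, 0.0297 with the block, and 0.0108 with no block and without high WSS replicate 3). At high stress the difference was 0.20, and −0.025 without that array.

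CTSH and CTSB had another order, with the negative gradient and baseline above the positive gradient and high stress. CTSH measured 12.11, 12.26 and 12.23 on positive gradient arrays and 12.42, 12.78 and 13.10 on negative gradient arrays. It measured 11.85, 12.16 and 12.19 at high stress, against 12.62, 12.84 and 12.82 at baseline. All 6 arrays of the negative gradient and baseline exceeded all 6 of the positive gradient and high stress. CTSH differed from baseline by −0.56 under the positive gradient (adjusted p = 0.0583, and 0.0147 with the block) and by −0.69 at high stress (0.086, and 0.00924 with the block). With no block the positive gradient passed without negative gradient replicate 1 or 3 or high WSS replicate 3 (adjusted p of 0.0397, 0.0443 and 0.0446). The high stress difference was −0.75 without replicate 3.

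CTSB, a cysteine protease of lysosomes that can also act outside the cell, measured 10.47, 10.65 and 10.47 on positive gradient arrays and 10.78, 11.01 and 11.03 on negative gradient arrays. It read 10.17, 10.34 and 10.45 at high stress, against 10.51, 11.07 and 10.43 at baseline. The negative gradient lay above both the positive gradient and high stress on every array, and the baseline arrays spread across the groups. CTSB was 0.62 higher under the negative gradient than at high stress (SE 0.17, adjusted p = 0.122), or 0.69 (0.0463) without high WSS replicate 3. A second, dimmer CTSB probe set gave 0.37 there. Under the positive gradient it fell below baseline by 0.52 (adjusted p = 0.0378), where the chosen one gave −0.14, and under the negative gradient the 2 probe sets differed in sign (−0.19 and 0.27).

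The collagen-degrading CTSK and CTSS, a cathepsin of antigen processing, differed by 0.36 and 0.32 between the negative gradient and high stress, their highest and lowest groups (0.34 and 0.21 without high WSS replicate 3), and passed in no comparison whose numbers pair. CTSL, another lysosomal cysteine protease, was dim and read 4.75, 4.39 and 3.78 on positive gradient arrays and 5.02, 5.00 and 4.65 on negative gradient arrays. It read 5.11, 4.24 and 3.96 at high stress, against 4.98, 6.87 and 4.90 at baseline. Baseline replicate 2 lay well above all other arrays. The difference under the positive gradient, −1.28 (SE 0.45), passed with the block and not without it (adjusted p = 0.0386, and 0.0946 without it), and it came to −0.63 without that array.

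Cystatins, which inhibit cysteine cathepsins, did not pass in any comparison whose numbers pair. CST3, the abundant secreted cystatin C, measured 10.83, 10.60 and 10.84 on positive gradient arrays and 11.00, 10.87 and 11.00 on negative gradient arrays. It measured 10.77, 10.74 and 10.97 at high stress, against 11.05, 11.05 and 11.05 at baseline, where the 3 arrays lay close together and above the rest. A second probe set of CST3 ran the other way, at 0.39, 0.18 and 0.26 above baseline under the positive gradient, the negative gradient and high stress, against −0.29, −0.093 and −0.22 for the chosen one. The chosen one gave −0.30 for high stress without replicate 3. CST6, a secreted cystatin, measured 6.03, 7.33 and 6.47 on positive gradient arrays and 6.35, 7.26 and 6.68 on negative gradient arrays. It measured 5.98, 7.23 and 6.40 at high stress, against 6.22, 7.41 and 7.05 at baseline. In each group its second array was the highest, and the groups overlapped.

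Of the calpains, calcium-dependent proteases of the cytosol, CAPN7 passed under the positive gradient. This atypical member measured 8.79, 8.89 and 8.77 on positive gradient arrays and 9.05, 8.88 and 9.15 on negative gradient arrays. It measured 9.05, 9.18 and 8.71 at high stress, against 9.51, 9.43 and 9.42 at baseline. All 9 arrays under the other flows lay below the 3 baseline arrays, and high WSS replicate 3 was the lowest of the 12. CAPN7 fell by 1.55-fold under the positive gradient (log2 −0.63, SE 0.14, adjusted p = 0.0251, and 0.0123 with the block). Differences under the negative gradient and at high stress were −0.43 (0.0977) and −0.47 (0.132). Without high WSS replicate 3 the negative gradient passed (0.0357), and high stress differed by −0.34 (0.323). CAPN2, the large subunit of m-calpain and the brightest calpain, measured 11.83, 11.51 and 11.88 on positive gradient arrays and 11.87, 11.31 and 11.94 on negative gradient arrays. It measured 12.07, 11.75 and 11.82 at high stress, against 11.91, 11.56 and 12.00 at baseline. The groups overlapped, and no difference passed. CAPN5, an atypical calpain, read 8.60, 8.72 and 8.95 on positive gradient arrays and 8.83, 8.65 and 9.11 on negative gradient arrays. It read 8.97, 9.02 and 8.95 at high stress, against 9.05, 8.71 and 9.33 at baseline, with overlap between all groups.

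The widest differences among arrays went with the replicate number rather than with flow. MMP9, gelatinase B, measured 4.58, 9.12 and 4.64 on positive gradient arrays and 4.75, 9.87 and 6.36 on negative gradient arrays. It measured 4.49, 9.11 and 5.09 at high stress, against 4.48, 9.69 and 6.18 at baseline. In each group the array numbered 2 stood far above the others: the 4 such arrays lay between 9.11 and 9.87 and the other 8 between 4.48 and 6.36, while group means spanned only 0.88.

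CTSC, the dipeptidyl peptidase that activates granule proteases of leukocytes, behaved likewise, at 9.33, 11.84 and 9.75 on positive gradient arrays and 9.69, 12.54 and 10.98 on negative gradient arrays. It stood at 9.43, 11.94 and 9.68 under high stress, against 9.81, 12.62 and 10.84 at baseline. ADAMTS4, an aggrecanase, measured 6.85, 8.53 and 7.11 on positive gradient arrays and 7.25, 10.02 and 7.61 on negative gradient arrays. It measured 7.03, 9.30 and 7.33 at high stress, against 7.20, 10.55 and 7.74 at baseline. CST6 also lay higher on all 4 arrays numbered 2 (7.23 to 7.41) than on the other 8 (5.98 to 7.05). CAPN2 was the only 1 of the 36 genes with all arrays numbered 2 below all others. For 12 of 36 genes the means of the 3 numbers ranged further than those of the 4 groups. These counts were not made over all named genes, so they do not show a trait particular to the protease genes. The pattern was noticed after the values were seen, and the differences between numbers were not tested.

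Within numbers, CTSC differed from baseline by −0.49, −0.78 and −1.08 under the positive gradient, which passed with the block (adjusted p = 0.0152) and not without it (0.595). At high stress its difference was −0.74 (0.0316 with the block, 0.755 without), or −0.40 without replicate 3. With no block, single arrays left out gave CTSC between −1.55 and −0.020 under the positive gradient and between −1.53 and 0.026 at high stress. ADAMTS4 differed from baseline by −0.35, −2.02 and −0.63 under the positive gradient (0.0204 with the block, 0.491 without), most in the pair numbered 2, and single arrays left out gave between −1.65 and 0.027. Without baseline replicate 2 and with no block these 3 differences came to −0.020 and 0.026 for CTSC, with the positive gradient first and high stress next, and to 0.027 for ADAMTS4. MMP9 passed in neither fit, at −0.67 (SE 1.67) for the positive gradient. The leukocyte marker CD14 moved with these genes: its arrays numbered 2 read 5.52 for the positive gradient, 7.12 for the negative gradient, 6.09 for high stress and 7.99 for baseline, the highest of each group. The endothelial marker ROBO4 was also highest there in each group, at 9.58, 10.09, 9.59 and 9.98 in the same order. The endothelial marker TEK, the fibroblast markers COL1A2 and COL3A1 and the smooth muscle marker TAGLN were lowest there in each group. No other leukocyte marker of the list was measured, and the part of cell makeup in these results was not tested.

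**Figure D4:**
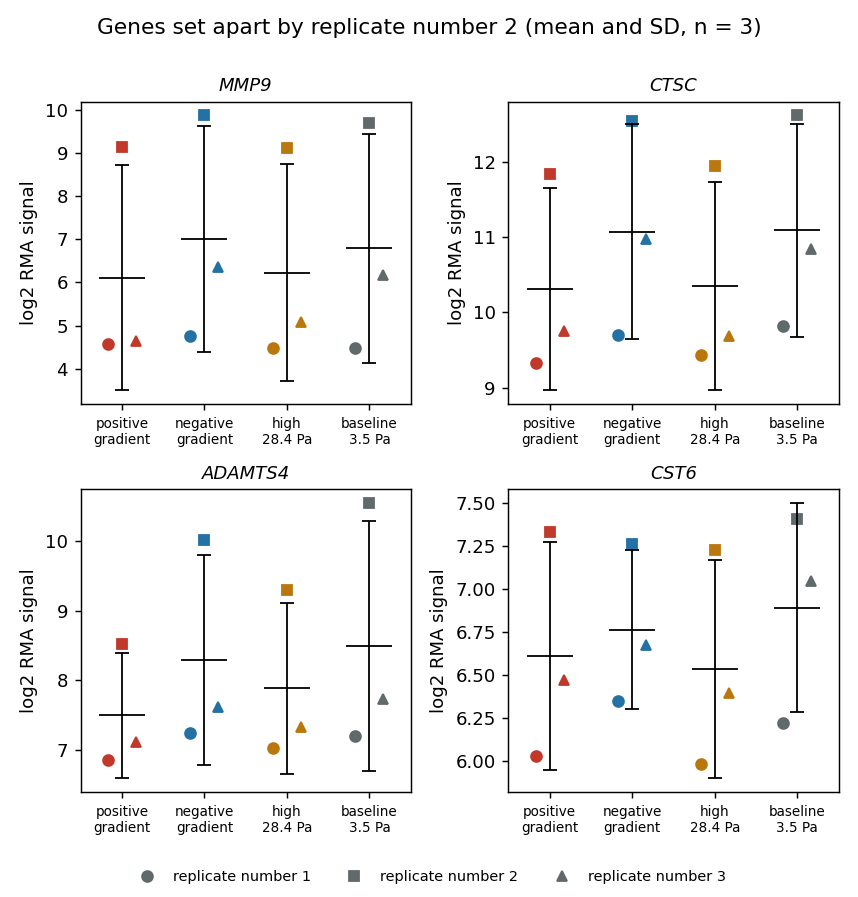
Log2 signal of MMP9, CTSC, ADAMTS4 and CST6 on each array, by flow group and replicate number (circle, square and triangle for 1, 2 and 3), with mean and SD per group (n = 3). In every panel and every group the square, replicate number 2, is the highest point.

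Across families, 18 of 36 genes (50%) had the means of both the negative gradient and baseline above those of both the positive gradient and high stress, an order found in 25.3% of all named genes. These included 6 of the 8 cathepsins (CTSB, CTSC, CTSH, CTSK, CTSL and CTSS) and both cystatins. The second CST3 probe set had the opposite order, however, and CTSC and CST6 ranged further over the replicate numbers than over the groups. The opposite order held for 6 of 36 (16.7%, and 23.3% of named genes): ADAMTS1, ADAMTS6, PLAT, PLAUR, SERPINB8 and TIMP3. Both gradients lay above both uniform flows in 8 of 36 (22.2%, and 21.9% of named genes), namely CTSA, CTSD, FURIN, MMP2, SERPINB6, SERPINB9, SERPINH1 and TIMP1. These orders are descriptions of means, many of which lie within the spread of the arrays.

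Other genes of these systems came from lists written from general knowledge. Of 14 measured partners of plasmin and surface proteolysis, 1 rose and 1 fell under the positive gradient against baseline: SPARC, a collagen-binding matricellular protein (0.67, adjusted p = 0.045), and THBS2, a thrombospondin that controls uptake of MMP2 (−1.09, 0.0184). The share of named genes called in that comparison was 13.9%. SPARC also rose under the negative gradient (0.83, 0.0415), the only 1 of 14 there, where 3.65% of named genes were called. Of 5 other measured proteases, PCSK7, a convertase related to furin, rose (0.51, 0.037) and PRSS23, a secreted serine protease, fell (−0.59, 0.0468) under the positive gradient. CAPNS1, the small subunit shared by the classical calpains, rose under the negative gradient (1.08, SE 0.23, 0.0415), while CAST, their inhibitor calpastatin, did not pass (−0.044).

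Of the 19 measured lysosomal genes outside the cathepsins 1 rose under the negative gradient (3.65% of named genes called), ATP6V0D1, a proton pump subunit (0.77, adjusted p = 0.0389), and the list's median difference was −0.099, beside −0.069 over all named genes. Under the positive gradient 2 fell (13.9% of named genes called), ASAH1, acid ceramidase (−0.96, 0.0163), and LAMP1, a membrane protein of lysosomes (−0.52, 0.0373). At high stress 1 of 19, ASAH1, fell (−0.95, 0.0327, 1.18% of named genes called). Of 20 measured matrix substrates and their modifiers, 3 fell under the positive gradient, FBN1, COL4A1 and LAMA4 (−1.08, −0.69 and −0.71), and the median there was −0.29, beside −0.041 over all named genes. With the block, where 34.3% of named genes were called, 16.1% higher and 18.2% lower, the positive gradient against baseline called 7 of the 14 partners (2 higher, 5 lower), 4 of the 5 other proteases (1 higher, 3 lower), 6 of the 19 lysosomal genes (1 higher, 5 lower) and 8 of the 20 matrix genes (1 higher, 7 lower). For high stress (14.6% of named genes) it called 3, 2, 2 and 4 of the same lists, all lower. For the negative gradient (11.9%) it called 2, 2, 1 and 1, all higher but 1 of the other proteases.

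The named genes whose values over the 12 arrays were most like those of CTSA, the gene with the smallest p for any group difference, were ATP6V0D1 (Pearson r = 0.99), SLC3A2, a subunit of amino acid transporters (0.97), USF1, a transcription factor (0.97), SUMF2, a protein of the endoplasmic reticulum (0.97), and POFUT2, an enzyme that adds fucose to thrombospondin repeats (0.97). These 12 points share flow groups, replicate numbers and arrays, so r describes likeness on these arrays only.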

How the data were processed

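The deposited log2 values of 12 Affymetrix bovine arrays were made by the authors with RMA, a method of background correction, quantile normalization and probe set summary, per the submitters' processing notes, which name RMA and limma without versions; the build is not given in the sources used here. Of 24128 probe sets 112 controls were left out and 24016 tested. Gene symbols came from the platform annotation, in which 4726 tested probe sets have 1 symbol, for 3977 genes. All 36 Entrez IDs matched RefSeq names. Precision is limited by 3 arrays per group.

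Differences were tested with limma 3.58.1 in R 4.3.3, with 1 mean per group over all 12 arrays, default eBayes (8 residual and 4.95 prior degrees of freedom) and Benjamini-Hochberg adjustment over all probe sets, called at an adjusted p under 0.05. Every adjusted p is limma's. The code was tested on simulated data. Genes and lists were chosen with earlier results of these data known. Genes described on all arrays were those called, the brightest and the most variable uncalled gene of each family, and 12 set by name. Replicate numbers from the titles were taken to pair the groups of a comparison where deviations from the group means correlated above 0.1 in all 3 pairs. This held in 5 of 6 comparisons (r from 0.15 to 0.62), and not between negative gradient and high stress (−0.079 for number 3). Alternatives were the replicate block, only the arrays of the 2 groups, a trend and robust prior, a filter on dim probe sets, arrays centred on their median, the mean of a gene's probe sets, and leaving out each array. The block with high WSS replicate 3 left out was added after seeing the data.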

Additional observations from a re-analysis of the deposited data

How the results depend on the processing

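Counts of protease genes past the test depended on the block and on single arrays. With the replicate block, the comparisons with baseline called 17 genes for the positive gradient, 7 for the negative gradient and 12 for high stress. It called 12 between the negative gradient and high stress (429 of 3977 named genes), where the numbers do not pair by the rule used here. In that comparison r was 0.33 and 0.41 for numbers 1 and 2, and −0.079 for number 3, the pair that holds high WSS replicate 3. Over the 4 groups the block called 20 (1107 of 3977 named genes), and it left the other 2 comparisons at 0. The block with high WSS replicate 3 left out, chosen after seeing the data, gave 19, 13 and 7 against baseline in the same order. It gave 1 between the gradients, 5 for the positive gradient and 14 for the negative gradient against high stress (1172 of 3977 named genes for the last), and 23 over the 4 groups. With only the arrays of both groups the positive gradient against baseline gave 8, and with dim probe sets filtered, which drops 2 of the 36 genes, it gave 7. Against baseline, high stress gave 2 with the trend and robust prior and 1 with the filter. The negative gradient against high stress gave 3 with that prior and 1 with the filter. The test over the 4 groups gave 6 with the prior, 2 with the filter and 2 with centred arrays. For these settings, for the arrays of both groups alone and for the 23 above, no share over all named genes was computed. Nor was it computed for single arrays left out, other than high WSS replicate 3. Leaving out 1 array gave 0 to 8 calls for the positive gradient against baseline, 0 to 5 for the negative gradient, 0 to 1 for high stress, 0 to 2 for the positive gradient against high stress, 0 to 7 for the negative gradient against high stress, 0 to 0 between the gradients and 0 to 11 over the 4 groups. The upper end came without high WSS replicate 3, except for high stress against baseline, where it came without baseline replicate 3. Without baseline replicate 2, ADAMTS4 under the positive gradient turned to 0.027 (range over single arrays left out −1.65 to 0.027) and CTSC at high stress to 0.026 (−1.53 to 0.026). PLAUR under the positive gradient missed the threshold with the trend and robust prior (adjusted p = 0.0558). The 36 differences followed through these settings were those called without the block or, where the numbers pair, with it. That 30 of them gained a call with the block follows from this choice. None of the 36 lost a call with the block. Causes of these shifts were not tested. With 3 arrays per group, small differences could not be resolved.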

Other observations

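Some of the 36 genes are neighbours in the RefSeq annotation of ARS-UCD2.0, which was used for order only. CTSK and CTSS, with 1 coding gene between them, varied alike over the 12 arrays (Pearson r = 0.80, and 0.59 after removing group means). SERPINB1 and SERPINB9, adjacent intracellular serpins, had r = 0.52 and 0.52 in the same way, and SERPINB6 and SERPINB9, with 1 coding gene between them, 0.63 and 0.37. SERPINB1 and SERPINB6, with 2 between them, had −0.066 and −0.086. CTSA and MMP9, with 3 between them, had 0.12 and 0.17. The points share arrays, flow groups and replicate numbers, and these values are descriptions.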
